A study of Mus musculus with 8 samples.

Results

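The 9 genes described here encode the main cardiac receptors for the autonomic transmitters, adenosine, angiotensin II and endothelin, with the 2 adenylyl cyclases that many of them regulate. They were chosen by symbol (Adrb1, Adra1a, Adra1b, Chrm2, Adora1, Agtr1a, Ednra, Adcy5 and Adcy6) and are 9 of the 48440 entries of the deposited count table. RNA was taken from purified cardiomyocytes of C57BL6/J mice at postnatal day 2. A male and a female heart from each of 4 litters gave 8 libraries, 4 per sex and 2 per litter. No allele, transgene or treatment is named in the labels, and how the cells were purified is not given in the sources used here. All 9 members were among the 13771 genes that passed the filter on low counts. Adra1a passed it narrowly, with 5 to 21 counts per library, and the other 8 had at least 430 counts in every library.

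Total counts per library ran from 14226342, in the female of litter 3, to 24910243. The 12 cardiomyocyte markers summed to between 79110 and 105680 CPM (counts per 1000000 counts of the scaled library). The summed levels were 21.3 to 184 CPM for 10 endothelial markers, 41.9 to 263 CPM for 10 fibroblast markers, and 905 to 1534 CPM for 10 mural markers. They were 5.08 to 9.56 CPM for 9 macrophage markers, 30.6 to 36.4 CPM for 10 Schwann and neural markers, and 98.6 to 532 CPM for 7 erythroid markers. The macrophage marker Fcgr1 and the neural marker Chat had 0 counts in every library. The cardiomyocyte sum was above each of these in every library, and neonatal cardiomyocytes also express some of the other markers, such as the mural markers Acta2 and Tagln. In bulk RNA, fewer cells of a type and less RNA per cell cannot be told apart.

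Beta-1 adrenergic receptors (Adrb1) couple to the stimulatory G protein Gs and raise cyclic AMP through adenylyl cyclase, the route by which noradrenaline increases heart rate and force. Muscarinic M2 (Chrm2) and adenosine A1 (Adora1) receptors couple to Gi, which inhibits the cyclases and opens the acetylcholine-gated potassium channel. Alpha-1 adrenergic (Adra1a, Adra1b), angiotensin type 1 (Agtr1a) and endothelin A (Ednra) receptors couple to Gq and phospholipase C, and are known for promoting cardiomyocyte growth. Adcy5 and Adcy6 are closely related cyclases, both inhibited by Gi and by calcium, and are the forms best known from cardiomyocytes.

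The promoters of Adrb1, Ednra and Adora1 are printed because these 3 receptors passed the litter test, Adrb1 and Ednra being higher in litter 3 and Adora1 lower in litter 1 and higher in litter 4. RefSeq promoter windows on GRCm38.p6 were found for 6 of the 9 members, in 8 windows, and Adra1a, Agtr1a and Adcy6 had no entry. Each sequence below is the 250 bases before a RefSeq start, read 5′ to 3′ on the gene's strand. Capitals mark matches, on either strand, to the letters TGACG (the core of the cyclic AMP response element), GGGCGG (bound by Sp1) or AAGTG (a core bound by NKX2-5). The windows lie at chr19:56721867-56722116 on the plus strand for Adrb1, at chr8:77724453-77724702 on the minus strand for Ednra, and at chr1:134235458-134235707 on the minus strand for Adora1.
Adrb1: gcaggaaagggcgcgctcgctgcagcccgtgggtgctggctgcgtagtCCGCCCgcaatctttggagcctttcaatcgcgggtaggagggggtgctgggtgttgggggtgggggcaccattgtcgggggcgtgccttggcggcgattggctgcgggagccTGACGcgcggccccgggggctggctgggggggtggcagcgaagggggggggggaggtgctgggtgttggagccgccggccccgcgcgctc
Ednra: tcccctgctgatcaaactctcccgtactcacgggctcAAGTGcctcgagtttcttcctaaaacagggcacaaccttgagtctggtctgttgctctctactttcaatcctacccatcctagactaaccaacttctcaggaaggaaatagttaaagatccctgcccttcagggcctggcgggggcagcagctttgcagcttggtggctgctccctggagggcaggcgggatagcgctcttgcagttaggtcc
Adora1: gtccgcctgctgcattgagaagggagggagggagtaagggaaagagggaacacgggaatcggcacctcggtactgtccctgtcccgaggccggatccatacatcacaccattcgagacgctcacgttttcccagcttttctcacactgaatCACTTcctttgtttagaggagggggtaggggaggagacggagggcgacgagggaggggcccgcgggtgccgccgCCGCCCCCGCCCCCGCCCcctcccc

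The Adrb1 window held 1 TGACG and 1 GGGCGG, with 24 CG dinucleotides and 74% G or C. The Adora1 window held 3 adjoining copies of GGGCGG, read on the other strand as CCGCCC, and 1 AAGTG, with 19 CG dinucleotides and 64.4% G or C. Ednra stood nearer the median of all promoters, which have 6 CG dinucleotides and 52.4% G or C, with 6 and 54.8%, and held 1 AAGTG. Among all 32851 RefSeq promoters, 17.8% held TGACG, 32.7% GGGCGG and 40.7% AAGTG, so that each of these matches was common. The full cyclic AMP element TGACGTCA, which contains TGACG and was present in 1.55% of promoters, was in 0 of the 8 windows of the members. The letters AGATAA, a core for cardiac GATA factors found in 9.99% of promoters, were also in 0 of 8 windows, as were TATAAA, the TATA box found in 12.4%. GGAATG, a core for TEAD factors found in 12.6%, was in 1 window, a second one of Adora1. These matches describe letters in the windows and no binding.

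Per kilobase of exon, which allows genes to be compared, Adcy6 had the highest level of the 9 members at 66.0 ± 10.3 CPM per kb (SD, n = 8). Adcy5 followed at 30.1 ± 2.76 and Adra1b at 22.5 ± 2.88 CPM per kb. Agtr1a at 15.8 ± 1.10 and Ednra at 15.1 ± 2.81 CPM per kb did not differ beyond their spread, with Agtr1a above Ednra in 5 of 8 libraries. Chrm2 stood at 10.3 ± 1.45, Adrb1 at 8.39 ± 1.12 and Adora1 at 4.60 ± 0.627 CPM per kb. Chrm2 was above Adrb1 in 7 of 8 libraries, and their ranges overlapped. Every other neighbour in the order up to Adora1 was separated in all 8 libraries, although the ranges of Adcy5 and Adra1b, and of Ednra and Chrm2, overlapped between libraries. Adra1a was far below the rest at 0.0635 ± 0.0291 CPM per kb. These levels use the joined length of all annotated exons. With the longest transcript as the length, a choice added after seeing the data, Ednra stood at 22.9 ± 4.24 CPM per kb, above Agtr1a at 20.0 ± 1.40 in 6 of 8 libraries and above Adra1b at 22.9 ± 2.93 in 3 of 8. Adra1a had 0.129 ± 0.0592 CPM per kb on that length, and the ranks of the members other than Ednra and Agtr1a were the same.

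**Figure D1:**
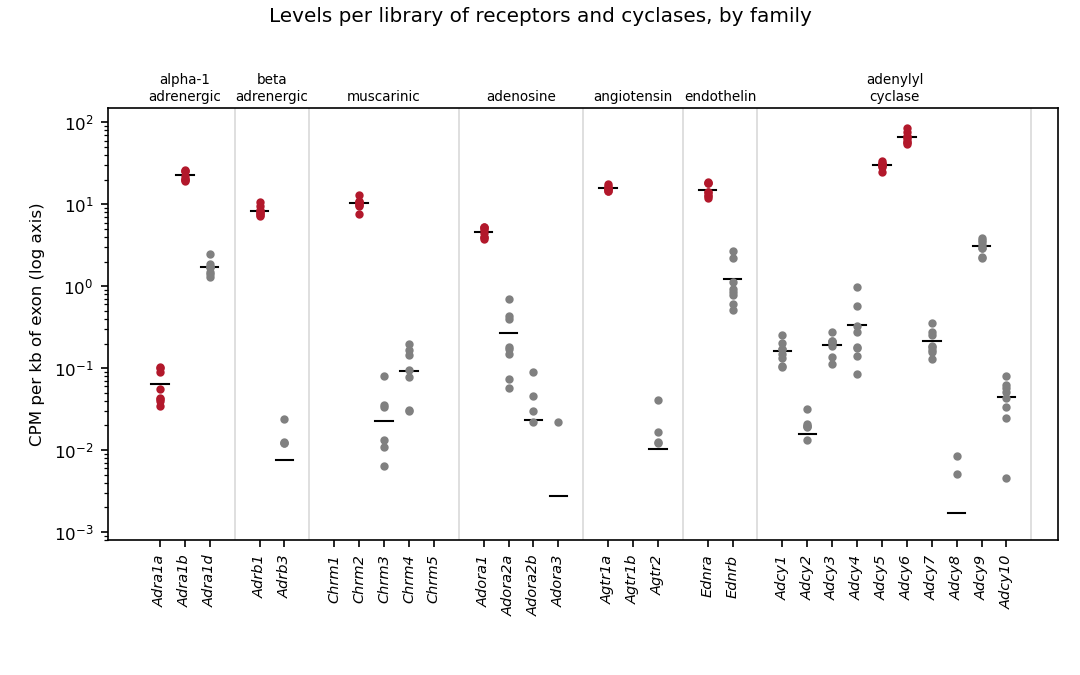
Level per kilobase of exon (CPM per kb, log axis) of receptors and cyclases by family. Points are the 8 libraries, red for the 9 members and grey for their paralogues, black bars are means over 8 libraries, and libraries with 0 counts have no point. Each family as drawn is led by a member, and the 2 cyclases Adcy6 and Adcy5 stand above Adcy9 in every library.

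In each of 5 receptor families, 1 gene held most of the counts. Over the 8 libraries, Adra1b had 95.3% (95% Wilson interval 94.9 to 95.6%) of the counts of the 3 alpha-1 receptors, against 4.03% for Adra1d and 0.692% for Adra1a. Chrm2 had 99.5% (99.4 to 99.6%) of muscarinic, Adora1 96.7% (96.1 to 97.1%) of adenosine and Agtr1a 99.9% (99.8 to 100%) of angiotensin receptor counts. Ednra had 94.0% (93.6 to 94.4%) of endothelin receptor counts. These intervals pool the counts of the 8 libraries, so they cover counting error only and not the spread between hearts. The reads carry no molecular identifiers. By library, the share ran from 94.1 to 96.8% for Adra1b, 98.9 to 99.9% for Chrm2 and 91.5 to 99.4% for Adora1. It ran from 99.7 to 100% for Agtr1a and from 85.1 to 96.9% for Ednra. The muscarinic genes Chrm1 and Chrm5 and the angiotensin receptor Agtr1b had 0 counts in all libraries, and 3 counts over the 8 libraries would be 0.0172 CPM. Agtr1b is a close copy of Agtr1a, but the longest transcript of each shared no exact stretch of 100 bases with another gene. Shorter shared stretches were not examined. Reads that fit both could have been dropped or given to either by the counting, which is not described.

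The series pairs males and females within litters, which allows the sexes to be compared. Of the 9 members, 0 differed between males and females at an adjusted p under 0.05 in edgeR's quasi-likelihood test, against 0.0436% of all genes tested. At an unadjusted p under 0.05 the count was also 0 of 9, beside 2.22% of all genes, and DESeq2 called 0 of 9. The sexes overlapped in CPM for each member, while 2.07% of all genes had sexes that did not overlap. With litter as a replicate block the count was again 0 of 9, against 0.211% of all genes.

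The member with the smallest sex p-value was Agtr1a, which had a log2 difference, male minus female, of -0.13 ± 0.07 (SE, edgeR adjusted p = 0.9996). Its mean was 42.0 CPM in males and 45.9 CPM in females, and the male was lower in 3 of 4 litters. Leaving aside Adra1a, the other log2 differences lay between -0.10 and 0.13, and the 95% intervals of all 8 genes lay within 0.755-fold and 1.41-fold. With the litter block those intervals narrowed to between 0.812-fold and 1.27-fold. For Adra1a the interval was wide, from 0.606-fold to 2.38-fold.

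More members were called between litters than between the sexes. Of the 9 members, 4 differed between litters at an adjusted p under 0.05 (Adrb1, Adora1, Ednra and Adcy6), or 44.4%, and 32.1% of all genes tested did. The litter test asks whether litter means differ by more than the male and female of a litter do once sex is taken out. The range of litter means had a median of 0.43 on the log2 scale over the members and of 0.37 over all genes tested. Each litter was then set against the mean of the other 3, and these 4 comparisons share libraries. In litter 3, 4 members were higher (Adrb1, Chrm2, Ednra and Adcy6), with 13.6% of all genes called higher there. In the same litter 0 members were lower, with 14.8% of all genes called lower. Both libraries of litter 3 lay above all others for the same 4 genes, as they did for 15.1% of all genes tested. In litter 1, Adora1 was lower (5.41% of all genes), and in litter 4 Adora1 was higher (4.71% of all genes). In litter 2, 0 of 9 were called by edgeR, where 4.18% of all genes were called in either direction. DESeq2 also called 0 in litter 2. At an unadjusted p under 0.05, 5 members differed in litter 1 (Adrb1, Adra1b, Adora1, Ednra and Adcy6, each lower), beside 28.4% of all genes. By the same measure 1 differed in litter 2 (Adra1a, higher; 17.9% of all genes), 6 in litter 3 (39.9%) and 3 in litter 4 (27.6%). Those of litter 3 were the 4 called genes with Adora1, higher, and Adcy5, lower, and those of litter 4 were Adora1, higher, with Adrb1 and Chrm2, lower.

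**Figure D2:**
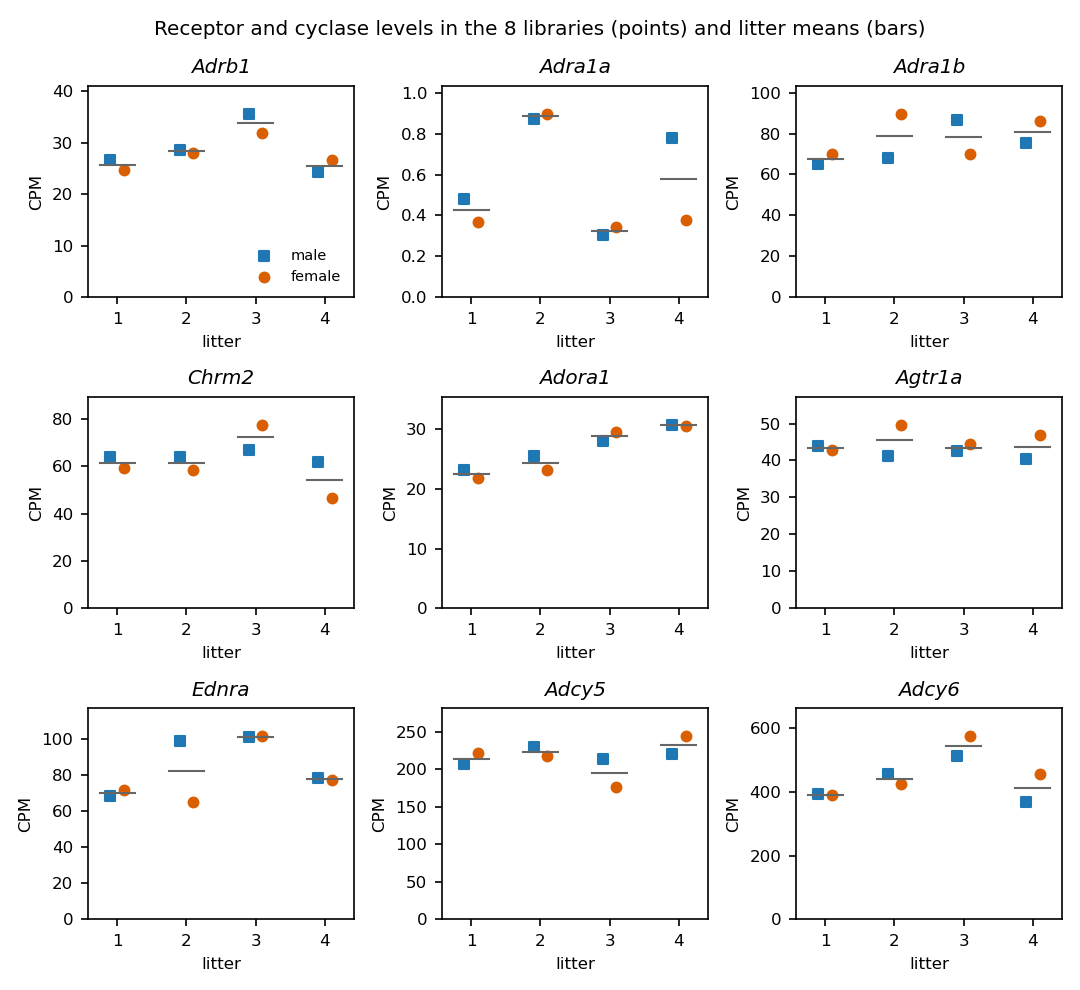
CPM (axes from 0) of each member by litter. Squares are males, circles are females and bars are litter means of 2 libraries. Both libraries of litter 3 are above all other libraries for Adrb1, Chrm2, Ednra and Adcy6, while Agtr1a stays between 40.5 and 49.7 CPM.

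Adrb1 (chr19:56722199-56733113, plus strand) encodes the beta-1 adrenergic receptor. It had 26.7 and 24.8 CPM in litter 1 (male, then female), 28.7 and 28.0 in litter 2, 35.7 and 31.9 in litter 3, and 24.4 and 26.7 in litter 4. Both hearts of litter 3 were above the other 6, and those 6 lay within 24.4 to 28.7 CPM. The litter test gave an edgeR adjusted p of 0.0175. Litter 3 was 1.28-fold higher than the mean of the others (95% interval 1.14 to 1.43, log2 0.35 ± 0.08 SE, edgeR adjusted p = 0.00545). The litter call was lost without the litter 1 female (adjusted p = 0.05), the litter 3 male (0.154) or all of litter 3 (0.432), over a range of 0.00198 to 0.432 for all alternatives. The litter 3 call was lost without its male (adjusted p = 0.117, range over all alternatives 0.000511 to 0.117). Its paralogue Adrb3 had 5 counts in all.

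The alpha-1 receptors did not pass the litter test. Adra1b (chr11:43774606-43901210, minus strand) had 65.0 and 69.9 CPM in litter 1 (male, then female), 67.8 and 89.8 in litter 2, 86.5 and 69.8 in litter 3, and 75.2 and 86.1 in litter 4. Within litters 2 and 3 the sexes stood apart in opposite directions, and the litters overlapped. Its litter test had an edgeR adjusted p of 0.318, which became 0.0358 without the female of litter 3 (range over all alternatives 0.0358 to 0.97).

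Adra1a (chr14:66635251-66771168, plus strand) had 0.482 and 0.370 CPM in litter 1 (male, then female), 0.873 and 0.899 in litter 2, 0.304 and 0.344 in litter 3, and 0.782 and 0.378 in litter 4. These rest on 12, 9, 21, 20, 7, 5, 14 and 9 counts. Both hearts of litter 3 were lowest, where 16.4% of all genes had both libraries below all others, and both of litter 2 were highest, as for 4.79% of all genes. The 95% Poisson interval of the highest value, 0.549 to 1.39 CPM, overlapped that of the lowest, 0.122 to 0.626 CPM. Neither the litter test (edgeR adjusted p = 0.0973) nor litter 3 (0.148) nor litter 2 (0.123) passed. Adra1d, the remaining alpha-1 receptor, had 3.26 ± 0.708 CPM (SD, n = 8) and an adjusted p of 0.302 between litters.

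Of the Gi-coupled receptors, Adora1 passed the litter test and Chrm2 was called in litter 3 but not by the litter test. Adora1 (chr1:134199223-134235431, minus strand) encodes the adenosine A1 receptor. It had 23.1 and 21.8 CPM in litter 1 (male, then female), 25.6 and 23.3 in litter 2, 28.1 and 29.6 in litter 3, and 30.8 and 30.6 in litter 4. The male and female of a litter lay close together, with both hearts of litter 1 lowest and both of litter 4 highest. Across all genes, 8.67% had both libraries of litter 1 below all others and 8.23% both libraries of litter 4 above. The litter test gave an edgeR adjusted p of 0.00877.

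In litter 1 Adora1 was 0.807-fold of the others (95% interval 0.721 to 0.905, log2 -0.31 ± 0.08 SE, edgeR adjusted p = 0.02). In litter 4 it was 1.22-fold higher (1.10 to 1.37, log2 0.29 ± 0.07 SE, edgeR adjusted p = 0.0281). The litter call was lost without the female of litter 1 (adjusted p = 0.0512) or all of litter 1 (0.0676), over a range of 0.000621 to 0.0676. The litter 1 call was lost with DESeq2 (0.064) and without either of its hearts (male 0.172, female 0.273) or without litter 4 (0.0772), over a range of 0.00511 to 0.273. The litter 4 call was lost under 8 alternatives, among them library size alone (0.0764), DESeq2 (0.0949) and the removal of its male (0.138), its female (0.179), either heart of litter 1 (male 0.0603, female 0.0775), all of litter 1 (0.143) or the female of litter 2 (0.0572), over a range of 0.00688 to 0.179. The share of counts from mitochondrial genes was 14.2 and 13.4% in litter 1 (male, then female), 18.5 and 15.2% in litter 4, and 14.2 to 15.0% in litters 2 and 3. The part of this share in the Adora1 values was not tested. Mybph overlaps 20.1% of the Adora1 exons on the opposite strand, and it had 0 to 3 counts per library.

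Chrm2 (chr6:36388084-36528414, plus strand), the muscarinic M2 receptor of the vagal input, had 64.0 and 59.2 CPM in litter 1 (male, then female), 64.1 and 58.4 in litter 2, 66.9 and 77.7 in litter 3, and 61.8 and 46.4 in litter 4. Both hearts of litter 3 were highest, the male by a small margin, and the female of litter 4 was lowest. The litter test did not pass (edgeR adjusted p = 0.0701) but did with library size alone (0.0239), with no filter (0.000875) and without the litter 3 male (0.0125), the litter 4 male (0.0168) or all of litter 2 (0.0384), and the range over all alternatives was 0.000875 to 0.235. Litter 3 was 1.23-fold higher (95% interval 1.07 to 1.42, log2 0.30 ± 0.09 SE, edgeR adjusted p = 0.0335). Without the female of litter 3 this log2 difference was 0.08 (adjusted p = 0.68), and the call was also lost without either heart of litter 1 (male 0.0553, female 0.0584) or the litter 4 female (0.0566), over a range of 0.000846 to 0.68. Chrm2 is known to be rich in atrial cells, and the sum of 10 atrial markers reached 1376 and 1674 CPM in litter 3 (male, then female) and 258 to 900 CPM elsewhere. In litter 3, 2 of these 10 markers were called higher and 1 lower, beside 13.6% and 14.8% of all genes. The part of the atrial sum in the Chrm2 value was not tested. The non-coding gene 9330158H04Rik overlaps 2.35% of the Chrm2 exons on the opposite strand, and with 4.27 to 9.63 CPM it was also called higher in litter 3 (log2 0.52 ± 0.17 SE, edgeR adjusted p = 0.0353). Kcnj5 and Kcnj3, the subunits of the channel that Gi-coupled receptors open, both differed between litters, where 32.1% of all genes did. Kcnj3 is itself among the 10 atrial markers. Kcnj5 had litter means of 143, 166, 185 and 204 CPM in litters 1 to 4 (edgeR adjusted p = 0.00132), and Kcnj3 28.4, 33.9, 35.2 and 27.3 CPM (0.0469).

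Agtr1a varied least of the members. Agtr1a (chr13:30336441-30382867, plus strand), the type 1 angiotensin receptor, had 43.8 and 42.8 CPM in litter 1 (male, then female), 41.1 and 49.7 in litter 2, 42.5 and 44.4 in litter 3, and 40.5 and 46.9 in litter 4. Litters and sexes overlapped throughout. Its coefficient of variation over the 8 libraries was 6.98%, in the lowest 11.5% of the genes tested, and its litter test had an edgeR adjusted p of 0.912. Litter 3 differed from the others by a log2 value of -0.02 ± 0.08 (SE), with a 95% interval of 0.880-fold to 1.11-fold.

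Of 10 other angiotensin genes listed, 5 were tested and 2 differed between litters, the enzymes Ace and Lnpep, where 32.1% of all genes did. Lnpep, an aminopeptidase that binds angiotensin IV, had litter means of 67.7, 67.4, 67.4 and 34.8 CPM and was lower in litter 4 (log2 -0.96 ± 0.08 SE, edgeR adjusted p = 0.000298). Ace, the angiotensin-converting enzyme, had 124 counts in all, with litter means of 0.405, 1.03, 0.152 and 1.27 CPM (edgeR adjusted p = 0.00877). Agt, the precursor of angiotensin, had 4.76 ± 0.884 CPM (SD, n = 8) and an adjusted p of 0.122. Agtrap, which binds the type 1 receptor, had 45.1 ± 3.53 CPM (adjusted p = 0.0966 between litters) and was called lower in litter 3 (log2 -0.21 ± 0.07 SE, edgeR adjusted p = 0.0405). Atp6ap2, the prorenin receptor, had 19.4 ± 1.36 CPM (adjusted p = 0.879 between litters). The renin gene Ren1 had 0 counts in every library, and Agtr2 had 6 counts in all.

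Ednra (chr8:77663031-77724464, minus strand), the endothelin A receptor, had 68.3 and 71.9 CPM in litter 1 (male, then female), 99.2 and 65.2 in litter 2, 101 and 102 in litter 3, and 78.6 and 77.5 in litter 4. Both hearts of litter 3 were highest, but the male of litter 2 came close to them, while the female of that litter had the lowest value. The litter test gave an edgeR adjusted p of 0.0389. Litter 3 was 1.33-fold higher (95% interval 1.13 to 1.56, log2 0.41 ± 0.11 SE, edgeR adjusted p = 0.0141). The litter call was the least stable of the 4, being lost under 8 alternatives over a range of adjusted p from 6.35e-07 to 0.464. These were DESeq2 (0.228), the model without sex (0.0724), and the removal of a male (litter 1, 0.11; litter 3, 0.0624; litter 4, 0.0551), of the litter 3 female (0.241), or of all of litter 1 (0.0806) or 3 (0.464). The litter 3 call was lost with DESeq2 (0.0819) and without the female of litter 3 (0.193), over a range of 4.13e-07 to 0.193.

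Ednra is also known from fibroblasts and mural cells. In litter 3, where it was highest, the fibroblast sum was lowest, at 41.9 to 60.7 CPM against 123 to 263 CPM elsewhere, with 8 of 10 markers called lower, beside 14.8% of all genes. The mural sum there was 905 to 929 CPM against 1342 to 1534 CPM, with 5 of the 9 tested called lower. The part of these cells in the Ednra values was not tested. A non-coding gene on the opposite strand, 4933431K23Rik, shares 1.66% of the Ednra exons and had 3.82 to 7.32 CPM.

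Ednrb, the endothelin B receptor, was highest in litter 2. It had litter means of 3.47, 10.5, 3.47 and 3.26 CPM in litters 1 to 4, and was called higher in litter 2 (log2 1.63 ± 0.22 SE, edgeR adjusted p = 0.00146). Ednra accordingly made up 88.1% of endothelin receptor counts in litter 2 and 95.4 to 96.7% in the other litters. Ece1, which releases active endothelin, had litter means of 8.72, 20.4, 8.26 and 9.39 CPM and was also higher in litter 2 (log2 1.22 ± 0.12 SE, edgeR adjusted p = 0.000261). The Gs-coupled adenosine receptor Adora2a (log2 1.84 ± 0.29 SE, adjusted p = 0.00355) and the cyclase Adcy4 (log2 1.97 ± 0.31 SE, adjusted p = 0.0038) were higher in litter 2 as well. Adora2a had 149 counts in all, and the litter 2 male, at 1.21 CPM, lay below the litter 1 female, at 1.32 CPM. Of the 92 tested pathway genes beside the members, 8 were called higher in litter 2, where 3.3% of all genes were, and 1 lower (Gng2). The 8 were Ednrb, Ece1, Adora2a, Adcy4, Rgs5, Akap12, Rgs3 and Lnpep. Lnpep was not particular to litter 2. Its means were 67.7, 67.4 and 67.4 CPM in litters 1 to 3, each called higher, and 34.8 CPM in litter 4. The sum of 10 endothelial markers was 114 and 184 CPM in the litter 2 hearts, with 21.3 to 80.3 CPM in every other library. Of the tested markers, 10 of 10 endothelial, 8 of 10 fibroblast and 4 of 9 mural ones were called higher in litter 2. Their part in the values of these 8 genes was not tested. Edn1, the main endothelin ligand, had 2.58 ± 0.679 CPM (SD, n = 8, adjusted p = 0.0747 between litters), and was called lower in litter 3 (log2 -0.78 ± 0.23 SE, edgeR adjusted p = 0.0233). Ece2 had 2.71 ± 0.575 CPM (adjusted p = 0.242 between litters). Gm49333 overlaps 57.5% of the Ece2 exons on the same strand, so this level may depend on how shared reads were counted.

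**Figure D3:**
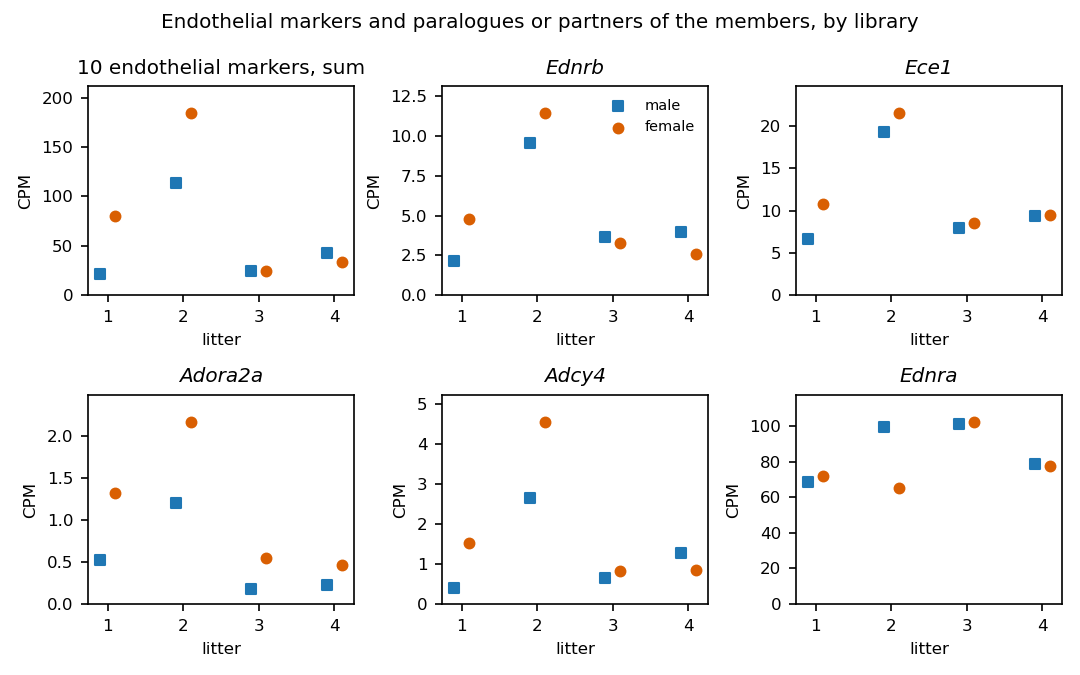
CPM by litter (axes from 0) of the summed endothelial markers, of 4 genes related to the members, and of Ednra. Squares are males and circles are females. Ednrb, Ece1 and the marker sum are highest in both libraries of litter 2, whereas Ednra has 99.2 and 65.2 CPM there.

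Of the 2 cyclases, Adcy6 was called higher in litter 3 and Adcy5 was not called. Adcy6 (chr15:98589973-98610076, minus strand) had 393 and 391 CPM in litter 1 (male, then female), 457 and 424 in litter 2, 512 and 578 in litter 3, and 369 and 456 in litter 4. Both hearts of litter 3 were above the other 6. The litter test gave an edgeR adjusted p of 0.00827, and litter 3 was 1.31-fold higher (95% interval 1.17 to 1.47, log2 0.39 ± 0.07 SE, edgeR adjusted p = 0.00232). The litter call was lost without the female of litter 3 (0.0854) or all of litter 3 (0.413), over a range of adjusted p from 7.98e-09 to 0.413. The litter 3 call was lost without that female (0.0566, range 2.6e-09 to 0.0566). In litter 1 Adcy6 was not called (log2 -0.24 ± 0.08 SE, edgeR adjusted p = 0.0601), but was called lower under 6 of 18 alternatives, among them DESeq2 (0.042) and no filter (0.00363), over a range of 0.00363 to 0.519. Gm29331 overlaps 8.92% of the Adcy6 exons on the opposite strand and had 0 to 3 counts per library.

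Adcy5 (chr16:35154877-35305738, plus strand) had 207 and 222 CPM in litter 1 (male, then female), 230 and 218 in litter 2, 213 and 176 in litter 3, and 220.5 and 245 in litter 4. The female of litter 3 was lowest, and the male of that litter lay among the other libraries. Neither the litter test (edgeR adjusted p = 0.171) nor litter 3 (log2 -0.20 ± 0.08 SE, adjusted p = 0.0787) passed. Leaving out libraries or litters gave log2 values of -0.37 to -0.04 for Adcy5 in litter 3. The litter test passed without the litter 3 male (0.0384, range over all alternatives 0.0384 to 0.663). Litter 3 was called lower with no filter (0.0259), without its male (0.0177) and without the litter 4 male (0.0298), over a range of 0.0177 to 0.819.

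The count of Adcy6 over that of Adcy5 was 1.90 and 1.76 in litter 1 (male, then female), 1.99 and 1.95 in litter 2, 2.40 and 3.28 in litter 3, and 1.67 and 1.86 in litter 4. Both hearts of litter 3 were above the rest, and they also differed most from each other. Adcy6 made up 71.1% of the counts of the 10 adenylyl cyclases in litter 3 and 62.1 to 63.8% in the others. Of the 8 other cyclases, 6 were tested and 2 differed between litters, Adcy4 and Adcy9, or 33.3%, close to the 32.1% of all genes. Adcy9, a cyclase with little sensitivity to Gi, had litter means of 15.4, 17.4, 19.6 and 11.7 CPM (edgeR adjusted p = 0.00203), and was called higher in litter 3 (log2 0.42 ± 0.09 SE, edgeR adjusted p = 0.00359) and lower in litter 4 (log2 -0.58 ± 0.09 SE, 0.0045). Adcy1 (2.03 ± 0.623 CPM), Adcy3 (1.22 ± 0.309), Adcy7 (1.44 ± 0.512) and Adcy10 (0.391 ± 0.207; SD, n = 8) did not pass that test, and Adcy7 was also called higher in litter 3 (log2 0.82 ± 0.26 SE, edgeR adjusted p = 0.034).

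**Figure D4:**
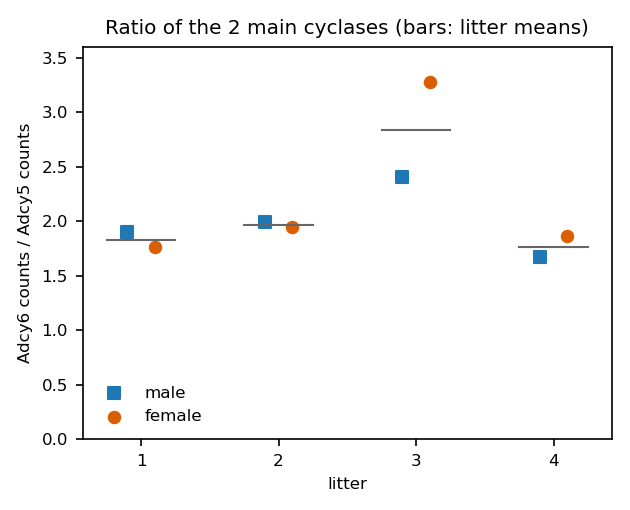
Count of Adcy6 divided by that of Adcy5 in each library by litter (axis from 0). Squares are males, circles are females and bars are litter means, which were 1.83, 1.97, 2.84 and 1.77.

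Litter 3 also differed in its markers. The 12 cardiomyocyte markers summed to 79110 and 80024 CPM there against 93216 to 105680 CPM elsewhere, and 7 of 12 were called lower, beside 14.8% of all genes. Of the 10 atrial markers 2 were called higher and 1 lower, and of the 10 endothelial markers 7 were lower, read against that same share and 13.6% of all genes called higher. The 8 epicardial markers summed to 23.5 and 23.8 CPM in litter 3 against 14.8 to 20.0 CPM elsewhere, while of the 7 tested 1 was called higher and 3 lower. The 7 erythroid markers summed to 532 CPM in the male and 185 CPM in the female of litter 3 against 98.6 to 247 CPM elsewhere, and 2 of the 6 tested were called higher. The part of these marker shifts, and of the fibroblast and mural ones, in the values of Adrb1, Chrm2, Ednra and Adcy6 was not tested. The median log2 difference of litter 3 was 0.17 over the 9 members and 0.00 over all genes tested.

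**Figure D5:**
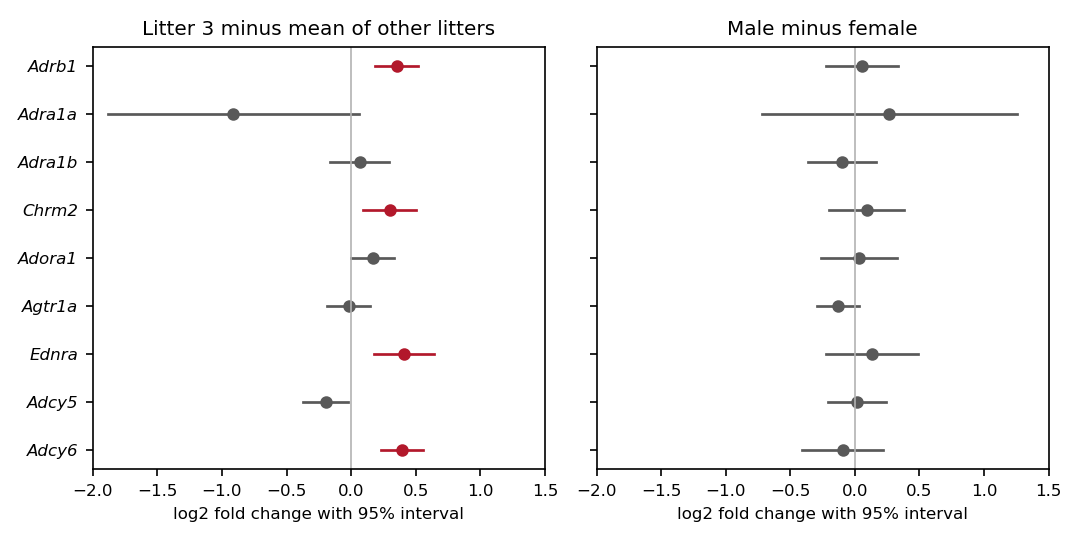
Log2 fold change of each member with its 95% interval, for litter 3 against the mean of the other litters (left) and for males against females (right). Red marks an adjusted p under 0.05. In litter 3, Adrb1, Chrm2, Ednra and Adcy6 lie at 0.30 to 0.41, and between the sexes every interval includes 0.

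Other genes of the pathway were taken from a list of 121, of which 92 were tested. Of these, 40 differed between litters, or 43.5%, beside 32.1% of all genes tested. In litter 3, 16 of the 92 were called higher and 20 lower, beside 13.6% and 14.8% of all genes, and 0 of the 92 differed by sex with or without the litter block. Of 15 G protein subunits, 4 differed between litters, or 26.7%, led by Gng2, a G protein gamma subunit, with litter means of 28.7, 35.2, 95.6 and 42.6 CPM (edgeR adjusted p = 1.7e-05). Gnai2 (246, 292, 306 and 301 CPM, adjusted p = 0.0269) and Gnai1 (21.4, 19.0, 20.1 and 15.4 CPM, 0.0276), both inhibitory alpha subunits, also differed.

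Of 15 tested receptor kinases, arrestins and RGS proteins, which shut off receptor signals, 7 differed between litters, or 46.7%, beside 32.1% of all genes. Rgs12 had litter means of 43.3, 50.7, 76.8 and 57.6 CPM (edgeR adjusted p = 0.000381). Rgs2, which acts on Gq, had 29.3, 27.5, 48.1 and 28.8 CPM (adjusted p = 0.00567). Rgs5, itself a mural marker, had 5.01, 9.50, 1.20 and 4.07 CPM (adjusted p = 0.000777).

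Of 28 tested cyclic AMP effectors and phosphodiesterases, 12 differed between litters, or 42.9%, beside 32.1% of all genes. The kinase anchor Akap6 had litter means of 254, 217, 188 and 186 CPM (edgeR adjusted p = 0.00167), and Akap12, another anchor, 4.54, 7.69, 1.69 and 2.59 CPM (0.0012). The phosphodiesterase Pde1c had 183, 172, 232 and 176 CPM (adjusted p = 0.00221). Of 15 tested effectors of Gq and G12/13, 8 differed, or 53.3%, beside that same 32.1%. The phospholipase Plce1 had 85.0, 74.2, 54.0 and 54.5 CPM (edgeR adjusted p = 0.000854), the inositol trisphosphate receptor Itpr2 35.2, 34.3, 31.3 and 23.2 CPM (0.00162), and Plcb2 3.16, 5.40, 7.91 and 4.73 CPM (0.00273).

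Likeness of pattern was measured as the root mean square difference of centred log2 CPM over the 8 libraries. Among the members, Adrb1 and Adcy6 were closest, at 0.105. The genes most like Adrb1 were Ddb2 (0.0559), Ago1 (0.0565) and Cpt1a (0.0570), where the median over all genes was 0.251. Those most like Adcy6 were Mcoln1 (0.0414), Abcc10 (0.0488) and Acox3 (0.0506), with a median of 0.273. For Adora1 they were Eef1a1 (0.0438), Ubxn1 (0.0447) and Rps9 (0.0491), and for Chrm2 Rsf1 (0.0565), Tbl1xr1 (0.0619) and Trim33 (0.0650). For Ednra they were Pdzrn3 (0.0897), Otulin (0.0973) and Fam169a (0.101), and for Adra1b Rad9b (0.0572), Arhgef40 (0.0670) and Pigv (0.0689). For Agtr1a and Adcy5 the closest were Vars2 (0.0377) and Bysl (0.0330), and for the sparse Adra1a, Megf6 (0.212).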

How the data were processed

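The authors deposited raw read counts per gene symbol, whole numbers in 1 table with 8 columns. The submitters' processing notes name STAR 2.7.3a and mm10. The labels' protocols name a stranded total RNA kit, while their molecule field says poly(A) RNA. The counting program, its annotation and its strand setting are not given in the sources used here.

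From these counts, genes kept by filterByExpr on sex were scaled by TMM in edgeR 4.0.16 (R 4.3.3), and CPM uses the scaled library size. The quasi-likelihood F test compared males with females without a litter term, litters in a model with sex (3 residual degrees of freedom), and each litter with the mean of the other 3. Benjamini-Hochberg adjustment ran over 13771 genes, with a threshold of 0.05. DESeq2 1.42.0 was an alternative, as were other scalings, filters, thinning and leaving out libraries or litters. Scripts were tested on simulated data. Exon lengths and positions came from GENCODE M21 on GRCm38, the assembly of mm10.

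The labels give a shared litter to same-numbered samples, and their deviations correlated across genes at 0.506, 0.503, 0.696 and 0.367 in litters 1 to 4. No library repeated another within sampling noise, with a chi-square per degree of freedom of 7.35 or more. The members, the gene lists and the rule for named genes were chosen with earlier results of these data known. That rule named all members, the tested paralogues, ligands and enzymes, the 3 called genes with the smallest litter p-value of each other list, and the genes most like each member. Some genes of the lists are not reported here.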

Additional observations from a re-analysis of the deposited data

Results flagged for a closer look

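Within each sex, 21 quantities (the members, the cyclase ratio, marker sums and total counts) were examined for a library far from the other 3 of its sex. This gave 42 groups, of which 4 held such a library, and chance alone gives about 1 in 20. Adra1a in the female of litter 2, at 0.899 CPM, stood above the other females at 0.344 to 0.378 CPM, on 20 counts. The Adcy6 over Adcy5 ratio in the female of litter 3, at 3.28, stood above the other females at 1.76 to 1.95. In the same library the atrial marker sum was highest of the females at 1674 CPM, and the mural marker sum lowest at 905 CPM. This library also had the smallest total count.

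Among the 9 members and the cyclase ratio, where alone this was looked for, there were 2 cases in which litter mates stood at opposite ends of their own sex, and these differences were not tested. In litter 3, Adra1b was highest of the males at 86.5 CPM and lowest of the females at 69.8 CPM, although another female had 69.9 CPM. In litter 1, Agtr1a was highest of the males at 43.8 CPM and lowest of the females at 42.8 CPM, so that the pair itself differed little.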

How the results depend on the processing

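With 2 hearts per litter, litter tests rest on 3 residual degrees of freedom, and a litter left with 1 library is assumed to vary like the others. Adra1a gave no value where a filter removed it. With litter as a replicate block, 29 genes differed by sex in place of 6, and 0 of 9 members in either fit. By litter, 4427 of 13771 genes and 4 members were called. Without litter 3 this was 1898 of 13899 genes and 1 member, and without litter 2 it was 4586 of 13740 genes and 5 members. Library size alone (4720 of 13771 genes) and no filter (5723 of 24853) also gave 5 members. Genes called in litter 2 numbered 575, against 1249 with no filter and 345 at a mean of at least 50 counts. Leaving out libraries or litters gave 5 to 8 genes by sex, 1898 to 4586 by litter (4427 with all libraries), 359 to 2906 for litter 1 (1827), 153 to 1407 for litter 2, 1704 to 4177 for litter 3 (3903) and 322 to 1984 for litter 4 (1447). Members called numbered 1 to 5 by litter over all alternatives, 0 to 4 in litter 1, 0 in litter 2, 1 to 5 in litter 3 and 0 to 2 in litter 4.

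Of 673 test values of members under alternatives, 589 kept direction and side of the threshold, 35 lost a call, 26 gained one and 23 changed sign, each of an uncalled value. Changes of sign were -0.0056 for Adora1 by sex after thinning and 0.025 for Agtr1a in litter 3 with library size alone, on the log2 scale. Leave-out ranges of log2 by sex were -0.062 to 0.12 for Adrb1, -0.017 to 0.22 for Chrm2, -0.049 to 0.12 for Adora1, -0.030 to 0.27 for Ednra, -0.077 to 0.084 for Adcy5 and -0.19 to 0.023 for Adcy6. In litter 3 they were -0.22 to 0.32 for Adra1b and -0.064 to 0.021 for Agtr1a. The cause of these changes was not tested. Scaling by library size alone shifted the median gene of litter 3 by 0.04.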
